A study of Mus musculus with 3 samples.

Results

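Open chromatin was examined around Klf2, Klf4 and Klf5, the Krüppel-like factor genes of naive pluripotency, in 3 ATAC-seq peak lists from mouse embryonic stem cells. ATAC-seq marks open DNA by the insertion of adapters with the Tn5 transposase. A peak was taken where its midpoint lay inside the body of one of the genes or within 100 kb of it, which gave 160 of 245531 peaks: 53 of the Halo-Sox2 list, 55 of the Halo-Sox2a list and 52 of the control list. Overlapping peaks of the lists were merged into regions, and 75 of 130664 regions belonged to these loci, 27 at Klf2, 19 at Klf4 and 29 at Klf5.

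The study set out to relate charged, disordered stretches of transcription factors to their search for sites and their opening of chromatin. Its 3 lines came from the CGR8 line of mouse embryonic stem cells. SES4.1 expressed Halo-Sox2 after 20 h with 300 ng/mL doxycycline, and SES5.1 expressed Halo-Sox2a, a form of Sox2 whose changes the labels leave undescribed, after 20 h with 70 ng/mL. Both carried the self-labelling Halo tag, were stained with 50 nM of the SiR dye and were sorted in the same window of intensity. SES11, the control, lacked an inducible transgene, and the labels give no doxycycline dose, no dye and no sort for it. All lines grew in serum with LIF, 3 µM of the GSK3 inhibitor CHIR99021 and 0.8 µM of the MEK inhibitor PD184352. Each group had 1 library of about 50000 cells, so no difference could be set against a spread between replicates and no p-value is given.

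Krüppel-like factors bind GC-rich and CACCC-type DNA through C-terminal zinc fingers. In embryonic stem cells Klf2, Klf4 and Klf5 share many target sites and cover for each other in holding the naive state. Klf4 is a well-known target of LIF and STAT3 signalling and a classic reprogramming factor beside Sox2. Klf2 protein is stabilised when MEK is inhibited, and Klf5 is needed in the early embryo for the inner cell mass and the trophectoderm.

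Peaks are described by presence, by distance from the gene body and by score percentile. The score is the authors' own value for a peak, without a stated scale, and was ranked only within its list, where 100 is the top. The lists hold 88898 (Halo-Sox2), 83995 (Halo-Sox2a) and 72638 (control) peaks, so percentiles set side by side give a position within each list and show no change. Where values come in threes without names, their order is Halo-Sox2, Halo-Sox2a, control. Read depth is unknown, so an absent peak can be a peak that just missed the authors' threshold. The identity of the cells could not be read from gene ends alone: 4, 6 and 6 of 8 stem cell markers had a peak within 1 kb of an end, and so did 4 of 6 fibroblast markers in each list. Of 4 skeletal muscle markers 4, 3 and 3 had such a peak, and of 4 blood markers 2 in each list.

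**Figure D1:**
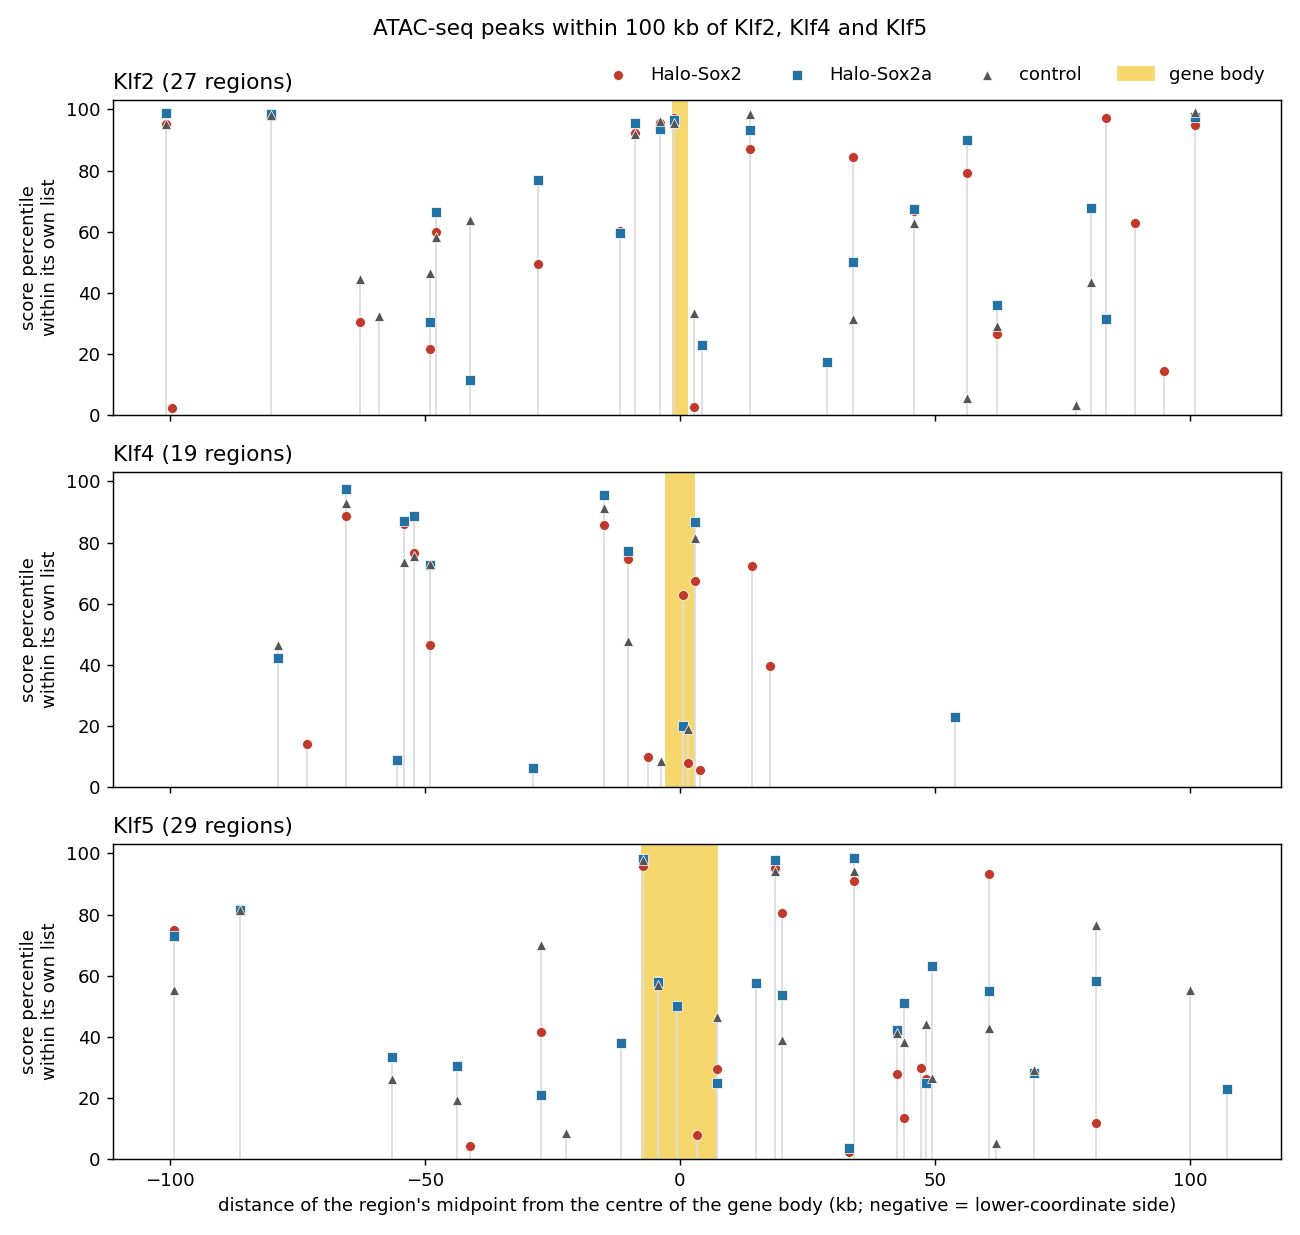
Score percentile within its own list (y axis) against distance from the centre of the gene body in kb (x axis) for the 75 regions at Klf2, Klf4 and Klf5. Each symbol is the highest peak of a list in a region; the start regions of Klf2 and Klf5 lie above percentile 95 in every list, and the lower-coordinate side of Klf4 carries its highest regions.

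Klf2 encodes a factor also known for its role in quiescent T cells and endothelium. The gene spans 2593 bp (chromosome 8, 72319062 to 72321654, mm10) on the plus strand, and its start was open in all 3 libraries. The region over the start (72318716 to 72319521, 806 bp) had scores of 869, 572 and 381, at percentiles 97.2, 96.4 and 95.4. The 3 lists thus placed it near the top of their own ranks, and the peaks of each list covered all 300 bases of the RefSeq promoter window (GRCm38.p6, chr8:72318812-72319111, plus strand). The window is printed because it is the open start common to the 3 lists; capitals mark GC boxes.

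Klf2 promoter: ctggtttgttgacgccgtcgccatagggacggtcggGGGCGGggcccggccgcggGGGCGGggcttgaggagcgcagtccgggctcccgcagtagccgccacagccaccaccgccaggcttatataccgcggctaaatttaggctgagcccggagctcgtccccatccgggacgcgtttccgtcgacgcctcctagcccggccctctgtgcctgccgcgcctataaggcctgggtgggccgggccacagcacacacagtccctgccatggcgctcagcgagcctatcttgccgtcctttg

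Upstream of Klf2 lay a run of open regions common to the 3 lists. The region 2.69 kb upstream (72316133 to 72316621) stood at percentiles 95.4, 93.6 and 96.3. The next, 7.43 kb upstream (72310943 to 72312315, 1373 bp), stood at 92.3, 95.7 and 91.8. Neither library with a Sox2 transgene placed these regions far from where the control list had them. Another, 12.4 kb downstream (72333291 to 72334810, 1520 bp), stood at 87.1, 93.2 and 98.6, and was the second highest control peak of the locus.

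Farther upstream, a pair of regions was held by both transgene lists and not by the control list. One lay 26.5 kb upstream (72292189 to 72292866), where Halo-Sox2 had a score of 148 (percentile 49.3) and Halo-Sox2a one of 224 (percentile 77.0). The other lay 10.5 kb upstream (72308380 to 72308762), with scores of 203 (percentile 60.3) and 131 (percentile 59.6). Both are outside any gene in the RefSeq table. The third region of this kind at the locus lay 82.2 kb downstream inside Eps15l1, an endocytic adaptor gene (72403318 to 72404346). Its Halo-Sox2 score of 876 ranked 2430 of the list, at percentile 97.3, and was the second highest Halo-Sox2 score of the locus, while the Halo-Sox2a score of 62 stood at percentile 31.4. The Halo-Sox2 peak was 1029 bp wide and the Halo-Sox2a peak 514 bp.

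Eps15l1 held further regions with unlike positions in the lists. At 54.9 kb from Klf2 (72376222 to 72376887), all 3 lists had a peak, at percentiles 79.0, 90.0 and 5.66, and the control score of 24 ranked 68446. At 32.6 kb (72353600 to 72354868) the percentiles were 84.6, 50.2 and 31.5, and the control list split the region into 2 peaks. These control peaks were thus present but low in their list. A region at 87.9 kb (72409279 to 72409911) was the highest of Halo-Sox2 alone, with a score of 217 at percentile 62.9.

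The remaining classes at Klf2 ran from low to middle percentiles. Just downstream, 1.54 kb past the gene (72322859 to 72323530), Halo-Sox2 and the control had peaks at percentiles 2.69 and 33.5. These peaks overlapped only at the edges, with midpoints 310.5 bp apart. The highest region of Halo-Sox2a alone followed at 2.96 kb (72324365 to 72324853), at percentile 22.9, and the highest of the control alone lay 57.7 kb upstream (72261229 to 72261539), at 32.4. Near an end of Ap1m1, a clathrin adaptor gene (72257495 to 72257809), Halo-Sox2 and the control shared a region at 30.3 and 44.6. Halo-Sox2a and the control shared their highest region inside Eps15l1 (72400618 to 72401102), at 67.8 and 43.4.

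The Klf2 window is shared with 3 other protein-coding genes, and 20 of its 27 regions lie nearest to one of those. The top peak of the locus was at an end of Ap1m1 in the Halo-Sox2 list (72239565 to 72240690, score 936), at an end of Fam32a in the Halo-Sox2a list (72219037 to 72220261, score 781) and at an end of Eps15l1 in the control list (72420753 to 72422098, score 578). All 3 of these regions were held by every list, between percentiles 94.8 and 99.0.

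Klf4 lies alone in its window, with no other protein-coding gene within 100 kb. The gene spans 5339 bp (chromosome 4, 55527137 to 55532475) on the minus strand, so the lower-coordinate side is downstream. A region across its start (55532006 to 55533505, 1500 bp) was held by all 3 lists, with scores of 252, 327 and 199. It stood at percentiles 67.6, 86.7 and 81.3, lower in each list than the start regions of Klf2 and Klf5. The region also touches the end of Gm12506, a long non-coding RNA gene, and the control list split it into 2 peaks. The promoter window (GRCm38.p6, chr4:55532426-55532725, minus strand) was covered in full by peaks of each list and is printed for comparison with that of Klf2, again with GC boxes in capitals.

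Klf4 promoter: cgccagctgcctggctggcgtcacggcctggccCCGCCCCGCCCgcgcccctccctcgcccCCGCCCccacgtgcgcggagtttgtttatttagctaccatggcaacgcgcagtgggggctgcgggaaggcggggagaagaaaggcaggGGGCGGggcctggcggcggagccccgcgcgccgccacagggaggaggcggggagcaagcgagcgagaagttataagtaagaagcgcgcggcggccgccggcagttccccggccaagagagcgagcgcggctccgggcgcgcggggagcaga

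Both promoter windows are rich in G and C, with 69.3% at Klf2 and 74.3% at Klf4 against a median of 52.7% over 32817 RefSeq promoter windows of 300 bases. Searched on both strands, the GC box GGGCGG, a common site of SP and KLF proteins, had 2 matches at Klf2 and 4 at Klf4, where a pair of matches shares a base; 35.6% of all windows held at least 1. This motif was added after the letters had been seen, and TATAAA was likewise not among the planned motifs. No match was found in either window for the SOX core ATTGTT (in 10.7% of all windows), the octamer ATGCAAAT (1.74%), the STAT palindrome TTCCNGGAA (1.15%), the Esrrb site TCAAGGTCA (0.424%), the KLF site GGGTGTGG (3.56%) or TATAAA (13.6%), nor for a joined SOX-OCT element with up to 2 mismatches (0.789%). These letters were sought only in the promoter windows.

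The highest regions of Klf4 were not at its start. A group of 4 regions held by all 3 lists lay between 46.3 and 62.8 kb downstream, the side on which distal Klf4 enhancers of stem cells are known. The outermost (55463741 to 55465034, 1294 bp) had the top score of the locus in every list, 530, 645 and 327, at percentiles 88.8, 97.6 and 93.0. The next inward, 51.4 kb downstream (55475367 to 55476019), stood at 86.2, 87.1 and 73.7, and the one at 49.4 kb (55477285 to 55478199) at 76.5, 88.7 and 75.7. The innermost, at 46.3 kb (55480363 to 55481359), was the only member of the group that stood 20 or more points lower in the Halo-Sox2 list than in both others, at 46.4 against 72.7 and 73.1. Its Halo-Sox2 peak was 296 bp wide, against 947 bp in the Halo-Sox2a list and 397 bp in the control list.

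A second group lay closer, and here too the lists shared the regions. At 12.2 kb downstream (55514556 to 55515369), scores were 464, 535 and 298, at percentiles 85.7, 95.6 and 91.4. At 7.42 kb (55519463 to 55519974), percentiles were 74.6, 77.2 and 47.9, so both transgene lists placed it over 20 points higher.

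Inside Klf4 a region was found with both transgenes but not in the control (55530052 to 55530850). The Halo-Sox2 peak was 799 bp wide with a score of 217, at percentile 62.9. The Halo-Sox2a peak was 224 bp wide with a score of 44, at percentile 20.1, among the low peaks of its list. Also inside the gene, Halo-Sox2 and the control shared a low region (55531222 to 55531652) at percentiles 7.94 and 18.9. Their peaks there overlapped only at the edges, with midpoints 193.5 bp apart. A control peak 1.13 kb downstream of the gene (55525913 to 55526098) stood at 8.73, and a Halo-Sox2 peak 1.27 kb upstream (55533594 to 55533901) at 5.64. The RefSeq table used gives no exons, so the regions inside the gene are not assigned to exon or intron.

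Upstream of Klf4, inside Gm12506, 5 regions were found, too few to set this side apart. The start region was held by all 3 lists and the other 4 by a transgene list alone, 3 of these below percentile 40 of their list; over the genome 32.1% of regions are held by all 3 lists and 45.5% by a transgene list without the control. The highest of Halo-Sox2 alone in any of the 3 loci lay there, 11.5 kb upstream (55543651 to 55544228), with a score of 295 at percentile 72.5. Another Halo-Sox2 peak followed at 14.9 kb (55547094 to 55547634), at percentile 39.8. Halo-Sox2a had its own region at 51.2 kb (55583458 to 55583944), at 22.9. Downstream, Halo-Sox2a and the control shared a region at 76.1 kb (55450832 to 55451307), at 42.4 and 46.4.

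Klf5 is the longest of the genes, with 14722 bp (chromosome 14, 99298691 to 99313412), and 24 of its 29 regions lie nearest to it. The region over its lower end, where transcription starts (99298307 to 99299310, 1004 bp), had scores of 786, 687 and 478, at percentiles 95.9, 98.1 and 97.8. It was the top peak of the locus in the Halo-Sox2 and control lists. In the Halo-Sox2a list the top peak was instead a region 26.8 kb beyond the higher end (99339492 to 99340964, 1473 bp), with a score of 739 at percentile 98.6, against 91.0 for Halo-Sox2 and 94.4 for the control.

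Within the Klf5 body all 3 lists shared 3 of 5 regions, too few to compare with the 32.1% of all regions. One in the first part of the gene (99301554 to 99301935) stood at percentiles 58.2, 57.9 and 56.9, nearly the same place in every list. The region over the higher end (99313062 to 99313647) was low in all, at 29.6, 25.1 and 46.4. Between them lay a region of Halo-Sox2a alone (99305441 to 99305672, score 101, percentile 50.2) and a region of Halo-Sox2 alone (99309256 to 99309513, score 39, percentile 7.94).

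The higher-coordinate side of Klf5 carried 16 of its regions, 8 of them held by all 3 lists, as were 32.1% of all regions of the genome. At 11.4 kb (99324392 to 99325175) the scores were 754, 664 and 351, at percentiles 95.3, 97.8 and 94.2. Its neighbour at 12.6 kb (99325753 to 99326337) stood at 80.4, 53.7 and 38.9, highest with Halo-Sox2. A region at 53.2 kb (99366039 to 99367106, 1068 bp) showed the same order, with a Halo-Sox2 score of 658 at percentile 93.1 against 54.9 and 42.9. At 74.2 kb (99387143 to 99388100) the order was the opposite, with 11.7, 58.2 and 76.6.

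On the lower-coordinate side of Klf5, a region 19.8 kb away (99278342 to 99279384) stood at percentile 70.0 in the control list and lower in both transgene lists, at 41.8 for Halo-Sox2 and 21.0 for Halo-Sox2a. The only region of both transgene lists without the control at this locus lay 25.8 kb from the higher end (99339026 to 99339343), beside the strong region at 26.8 kb. It was among the lowest peaks of either list, at percentiles 2.43 and 3.83. The highest region of Halo-Sox2a alone lay at 7.51 kb (99320818 to 99321018, percentile 57.7), that of Halo-Sox2 alone at 39.9 kb (99353166 to 99353366, percentile 29.8) and that of the control alone at 92.7 kb (99405907 to 99406323, percentile 55.3). Halo-Sox2a and the control shared their highest region at 42.0 kb (99354868 to 99355879), at 63.3 and 26.7, while no region here was shared by Halo-Sox2 and the control alone.

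Over the 3 loci, 34 of 75 regions (45.3%, exact 95% binomial interval 33.8 to 57.3%) were held by all 3 lists, against 32.1% of all regions. Regions held by a transgene list and not by the control list, here termed gained, numbered 25 (33.3%, 22.9 to 45.2%), against 45.5% of all regions. Both gains are read against the same control library. The intervals cover counting error only, and neighbouring regions are not independent. The difference from all regions was 13.2 points (1.66 to 25.1) for the shared and -12.2 points (-22.7 to -0.35) for the gained regions. The interval of the gained difference included 0 in windows of 50 kb (-23.4 to 5.03) and 20 kb (-24.0 to 13.9), above percentile 50 of each list (-21.5 to 9.78) and for regions nearest to a Klf gene (-21.6 to 7.14). That of the shared difference included 0 in the 20 kb window (-4.62 to 34.0) and for regions nearest to a Klf gene (-0.76 to 28.7). The interval of the gained difference thus excluded 0 under some settings and included it under others. Among regions within 100 kb of any protein-coding gene, 34.1% were held by all 3 lists and 44.9% were gained.

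By class, 11 regions (14.7%) were of Halo-Sox2 alone, against 24.3% of all regions, and 9 (12.0%) of Halo-Sox2a alone, against 12.2%. Regions of both transgene lists numbered 5 (6.67%), against 8.95%, and those of the control alone 6 (8.0%), against 10.2%. Halo-Sox2a and the control alone shared 7 (9.33%), against 10.3%, and Halo-Sox2 and the control alone shared 3 (4.0%), against 1.90%. The share of Halo-Sox2 alone was the class farthest below its genome-wide share, which lies inside its interval of 7.56 to 24.7%.

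The gained share varied among the genes. At Klf4, 9 of 19 regions were gained (47.4%, 24.4 to 71.1%), against 8 of 27 at Klf2 (29.6%, 13.8 to 50.2%) and 8 of 29 at Klf5 (27.6%, 12.7 to 47.2%). The share over all regions, 45.5%, lies inside each of these intervals. With lists of equal size the Klf4 share was 28.6%. The intervals overlap, and none was computed for a difference between genes, so no difference between the genes is claimed. Regions in all 3 lists made up 36.8% at Klf4, 48.1% at Klf2 and 48.3% at Klf5, against 32.1% of all regions.

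**Figure D2:**
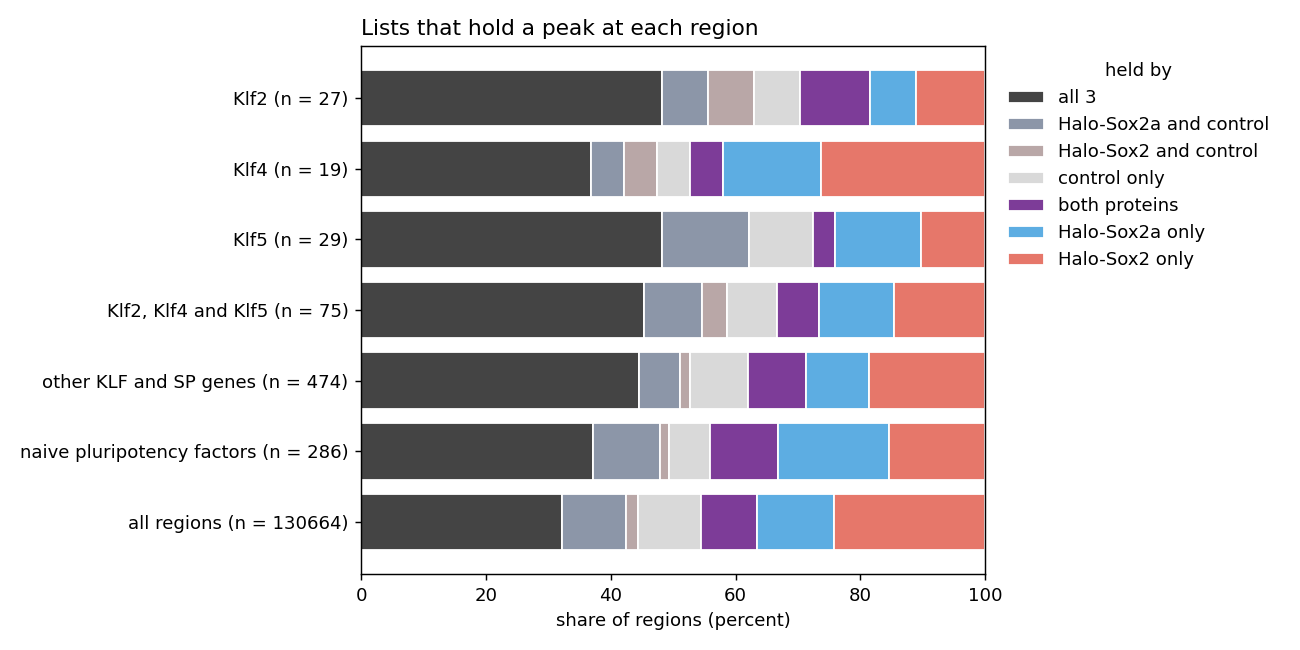
Share of regions in percent (x axis) by the lists that hold a peak there, for each Klf gene, their sum, 2 fixed gene lists and all regions (y axis, n = number of regions). The dark segment, regions held by all 3 lists, is 45.3% for the 3 Klf genes together and 32.1% for all regions.

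The regions were also counted apart from gene ends. Of the 75, 8 (10.7%) lay at most 1 kb from where a protein-coding gene begins or stops, compared with 12.3% of all regions. Among these 8, 7 were in all 3 lists and 0 were gained, against 76.1% and 14.7% of all regions so placed. Of the 67 regions farther away, 27 (40.3%, 28.5 to 53.0%) were held by all 3 lists and 25 (37.3%, 25.8 to 50.0%) were gained, against 26.0% and 49.8% of all regions farther away. All 25 gained regions of the loci were thus away from protein-coding gene ends, as were 57119 of the 59470 gained regions of the genome.

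By distance from the gene body, gained regions were spread over the windows. They made up 3 of 8 regions inside the bodies, 5 of 11 up to 10 kb away, 3 of 9 between 10 and 25 kb, 6 of 20 between 25 and 50 kb and 8 of 27 between 50 and 100 kb. Over all regions 45.5% were gained, a share not split by distance, so no trend with distance is read from these small counts. The nearest 10 kb held 7 peaks of every list outside the bodies. The Klf2 and Klf5 windows were well filled, with more regions than 81.3% and 86.4% of the windows of 21887 protein-coding genes, whose median was 18 regions. The Klf4 window, with 19 regions, was close to that median.

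Peaks of the top decile were more frequent at the loci than in each list as a whole, mainly through the Klf2 window with its neighbouring genes. The share above percentile 90 was 20.8% (11 of 53 peaks), 23.6% (13 of 55) and 23.1% (12 of 52), against 10.0% of each whole list. The Klf2 window supplied 7, 8 and 7 of these peaks in the same order, while Klf4 had 0, 2 and 2, and Klf5 4, 3 and 3. In every list those of the Klf2 window included the peaks at ends of Fam32a, Ap1m1 and Eps15l1, which lie nearest to these genes and not to Klf2. The median percentile over the loci was 62.9, 57.9 and 47.2, where a whole list has a median near 50 by construction. In the control list 27 of 52 peaks lay under the list median. At Klf5 alone the medians were 35.8, 51.2 and 44.3, against 66.8, 67.6 and 52.3 at Klf2.

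Height differed by class. For regions that every list held, the median was 79.7, 79.4 and 73.4, compared with 61.5, 72.3 and 68.0 over the genome. The 11 regions of Halo-Sox2 alone had a median of 14.3, against 38.7 for all regions of that class, and ranged from 2.43 to 72.5. The 9 of Halo-Sox2a alone had a median of 22.9, against 19.3, and the 6 of the control alone 8.73, against 18.5. The regions of Halo-Sox2 alone at the Klf genes were therefore mostly among the low peaks of that list.

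For regions held by both lists of a pair, percentiles were compared with a margin of 20 points. Of the 37 regions shared by Halo-Sox2 and the control, 5 (13.5%) stood at least 20 points higher in the Halo-Sox2 list and 6 (16.2%) at least 20 points lower, against 13.2% and 24.5% of all regions shared by these lists. Of the 41 shared by Halo-Sox2a and the control, 4 (9.76%) were higher and 3 (7.32%) lower, against 16.4% and 11.8%. Of the 39 shared by both transgene lists, 6 (15.4%) were higher with Halo-Sox2 and 4 (10.3%) lower, against 13.0% and 24.2%. On the higher side the shares were close to or under the background for all 3 pairs, and on the lower side under it for all 3.

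**Figure D3:**
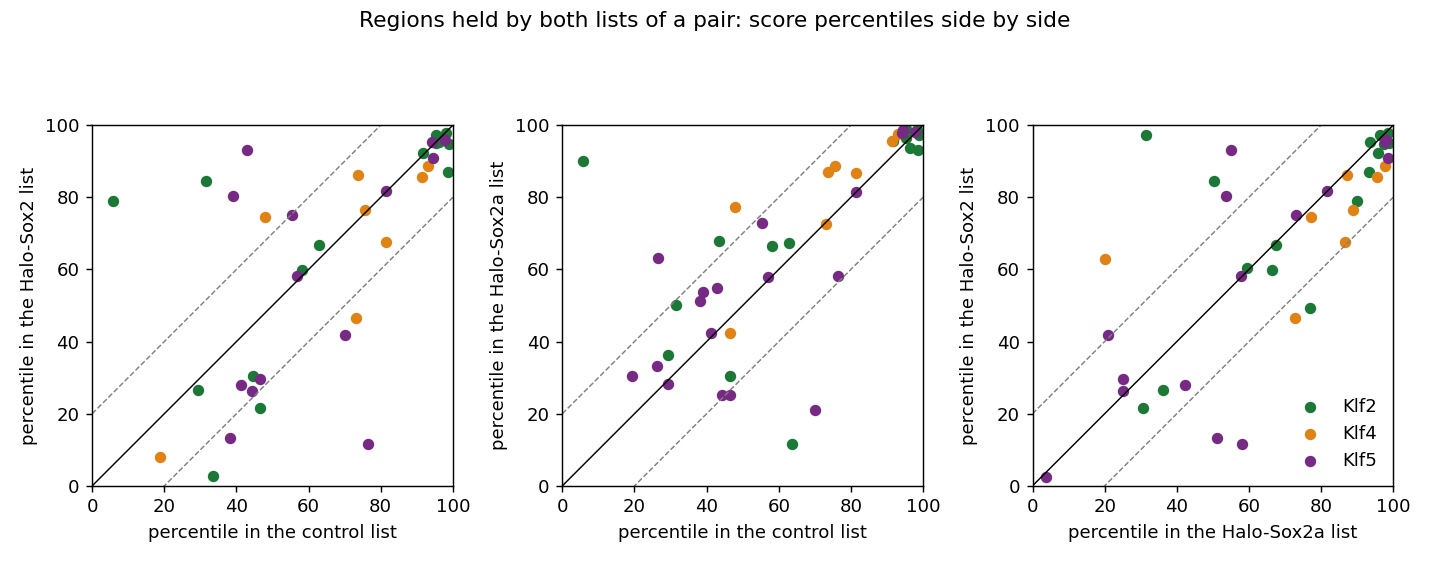
Score percentile in one list against that in another (both axes from 0 to 100) for regions at Klf2, Klf4 and Klf5 held by both lists of a pair (37, 41 and 39 regions from left to right). The solid line marks equal percentiles and the dashed lines 20 points either way; most points lie between the dashed lines and crowd at the top right.

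Higher by that margin with Halo-Sox2 than with the control were the Eps15l1 regions 32.6 and 54.9 kb from Klf2, the region 7.42 kb downstream of Klf4, and those 12.6 and 53.2 kb from Klf5. The regions 54.9 kb from Klf2 and 7.42 kb from Klf4 were also higher with Halo-Sox2a. The largest difference on the lower side was that 74.2 kb from Klf5, with -64.8 points for Halo-Sox2 minus the control. For Halo-Sox2a it was a region 39.9 kb upstream of Klf2 (72278864 to 72279462), where Halo-Sox2a stood at 11.5 and the control at 63.8.

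Where lists shared a region, the midpoints of their peaks mostly lay close together, but not in every region. The midpoints differed by a median of 60.5 bp between Halo-Sox2 and the control, 61.0 bp between Halo-Sox2a and the control and 51.5 bp between both transgene lists, against 67.0, 63.0 and 60.5 bp over all shared regions. The largest differences at the loci were 468, 462 and 303.5 bp. For the 5 regions named above as higher with Halo-Sox2 than with the control, they were 468, 159.5, 26, 11.5 and 359.5 bp, in the order named. Where midpoints lay far apart, the percentiles side by side can belong to different peaks within a region. By length, Halo-Sox2 and the control shared 50.9% of the bases covered by either at the loci, Halo-Sox2a and the control 58.7%, and both transgene lists 56.2%. Over whole lists these shares were 37.5%, 51.4% and 44.2%. The lowest value at a single gene was 44.3% between both transgene lists at Klf4.

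The wider family gave a reference. The 23 other KLF and SP genes had 474 regions within 100 kb, of which 44.5% (40.0 to 49.1%) were held by all 3 lists and 38.0% (33.6 to 42.5%) were gained. The gained share per gene ran from 17.2% at Sp7 to 72.2% at Klf7, with a median of 38.5%, and 19 of the 23 genes lay under the share of all regions. Windows of some of these genes share regions, so the shares per gene are not independent. At Klf7, 11 of 18 regions were of Halo-Sox2 alone, a class that held 24.3% of all regions. The shares of Klf2 and Klf5 thus lie inside the range of their family, as does that of Klf4.

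The 12 naive pluripotency factors that work beside the Klf genes had 286 regions, with 37.1% (31.5 to 42.9%) in all 3 lists and 44.1% (38.2 to 50.0%) gained. Their gained share ran from 0% at Nr0b1, with only 4 regions, to 60.0% at Tbx3, and 6 of 12 lay under the share of all regions. Regions of Halo-Sox2a alone made up 17.8% there (13.6 to 22.8%), against 12.0% at the Klf loci (5.64 to 21.6%) and 12.2% of all regions. The intervals of both gene sets overlap. At Stat3, which carries the LIF signal to Klf4, 5 of 13 regions were gained (38.5%), against 45.5% of all regions.

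**Figure D4:**
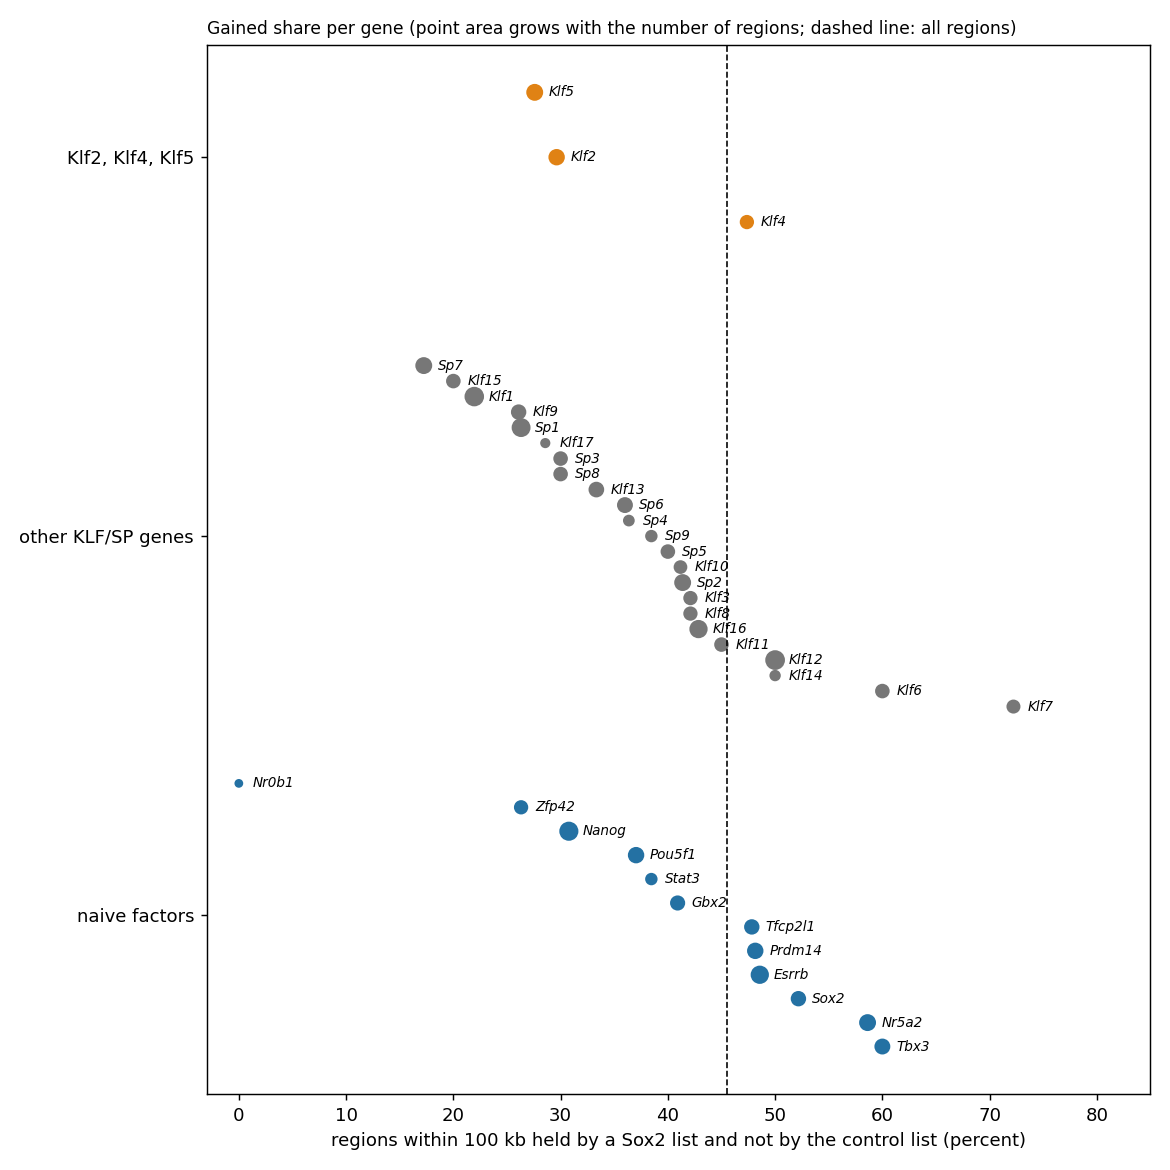
Share of regions within 100 kb that a transgene list holds and the control list does not, in percent (x axis), for each gene of 3 groups (y axis); the dashed line is the share over all regions, 45.5%. Klf2 (29.6%) and Klf5 (27.6%) lie left of the line and Klf4 (47.4%) just right of it.

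Genes with the most similar mix of the 7 classes were sought among protein-coding genes with a like number of regions, by the sum of absolute differences in class shares. Klf2 was closest to Pltp (11.5 points), Sympk (11.9) and Ptk7 (12.7), among 6384 candidates with a median of 44.4 points. Klf4 had the same counts in every class as N4bp2 (0 points), followed by Entpd5 (8.19) and Pkp2 (9.21), among 6119 with a median of 49.7. Klf5 was closest to Sting1 (5.98), 2810004N23Rik (8.83) and Atg4b (9.20), among 5077 with a median of 42.7. These matches rest on 3 libraries and on at most 16 regions per class.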

How the data were processed

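Chromatin accessibility was measured by ATAC-seq in 3 libraries, 1 per group, sequenced as 75-bp pairs. The data deposited by the authors were 1 peak list per library with a whole-number score per peak; the lowest score was 13 in each list and its scale is not stated. Per the submitters' processing notes, the build was mm10 and the tools included STAR, SAMtools, MACS2 3.0.0a7, MACS3 and deepTools 3.3.0, without stated roles. A threshold and any shift of read ends are not given in the sources used here. Peak names carry a single library name each, so peaks were called per library.

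Positions were made 1-based. Peaks overlapping by 1 bp were merged into regions with Python 3.11.15, pandas 2.3.3 and scipy 1.17.1, tested on simulated peaks. Genes and promoter windows (250 bases before to 50 after the start; 2 of the 3 Klf genes matched) came from RefSeq, GRCm38.p6. No fit and no test was made, since each group had 1 library.

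Named were the regions over or within 2 kb of each Klf gene, the top peak of each list, the top region of each class and every region of both transgene lists without the control, per locus. Further regions were chosen after their values were seen, some for unlike percentiles between lists (Eps15l1 32.6 and 54.9 kb from Klf2; 7.42 and 46.3 kb from Klf4; 12.6, 19.8, 53.2 and 74.2 kb from Klf5; 39.9 kb upstream of Klf2) and others because they were high in every list or neighboured a named region. The 3 most similar genes lay over 200 kb from the Klf genes and had a number of regions within 20%. The members and gene lists were chosen with earlier results of these data known. Alternatives were tried for joining, score, list size, window and nearest gene.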

Additional observations from a re-analysis of the deposited data

How the results depend on the processing

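The share of regions in all 3 lists was 13.7 to 17.4 points above that of all regions under the 8 alternatives, but its interval included 0 in the 20 kb window (-4.62 to 34.0) and for regions nearest to a Klf gene (-0.76 to 28.7). Relative to all regions, the gained share differed by -15.5 to -6.23 points and the share of Halo-Sox2 alone by -15.8 to -6.46. The interval of the gained difference included 0 above percentile 50, in windows of 50 and 20 kb and for regions nearest to a Klf gene. That of Halo-Sox2 alone included 0 as reported (-16.8 to 0.41), in both smaller windows, with 50% overlap and for regions nearest to a Klf gene. The gained share was lowest with lists of equal size (23.1%) and highest in a 20 kb window (39.3%). Several alternatives keep fewer peaks by construction. Above percentile 50 of each list, 30 Halo-Sox2, 34 Halo-Sox2a and 25 control peaks were left. A 20 kb window left 21, 19 and 18, and regions nearest to a Klf gene only 34, 36 and 31. A 50 kb window left 33 control peaks. Equal list sizes left Klf4 with the highest gained share (28.6%), over Klf2 (24.0%) and Klf5 (19.2%). Above percentile 50 the order changed: Klf4 had 33.3% gained, Klf2 41.2% and Klf5 40.0%. No paired analysis was possible because each group had 1 library. The unknown depth limits every statement on an absent peak.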
